A study of Mus musculus with 24 samples.

Results

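The comparison described here asked how far the change in RNA levels that interleukin-4 (IL-4) brought about in macrophages differed between wild-type (WT) mice and mice without STAT6. It was taken from the 12 arrays of cells that received the vehicle, out of 24 arrays in the study, as the log2 level with IL-4 minus the log2 level without it in WT cells, less the same quantity in STAT6KO (KO) cells. The remaining 12 arrays came from the same mice and carried 1 µM rosiglitazone (RSG), a synthetic PPARγ ligand, in place of the vehicle. All cells were bone marrow-derived macrophages, grown from femoral marrow in 20 ng/ml of the macrophage growth factor M-CSF for 10 days. The study names the C57Bl/6 strain for the WT mice and states no strain for the mice without STAT6. The WT control group held cells of mice 1, 2 and 3 with M-CSF and vehicle (DMSO and ethanol), and the WT IL-4 group held cells of the same 3 mice with 20 ng/ml IL-4 added. The KO control and KO IL-4 groups were made in the same way from mice 4, 5 and 6, which lacked STAT6 in every cell and came from a commercial supplier. The mouse numbers are those that lead the sample titles. They were read as 1 animal each, which the text of the study does not state. The age of the mice was not given in the sources used here, and the deletion was present throughout differentiation. For macrophages of these genotypes measured by PCR, the study describes treatment for as long as the differentiation lasted. It states no separate duration of IL-4 for the arrays. Effects of IL-4 on differentiation and on finished macrophages were therefore not told apart.

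IL-4 binds a receptor that holds the IL-4Rα chain, and the Janus kinases attached to it phosphorylate STAT6, which then enters the nucleus and binds DNA as a dimer. In macrophages this pathway drives the programme called alternative activation, with mannose receptor, arginase and chitinase-like proteins among its best known products. PPARγ, a nuclear receptor for fatty acids that acts with RXR, is itself induced by IL-4 and controls genes of lipid uptake, storage and oxidation.

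Each array was an Affymetrix Mouse430_2 chip, and each deposited value was a ratio to the median of its probe set, so a log2 level of 0 is that median and levels cannot be compared between genes. For the same reason the mean level of a probe set over arrays is a mean of log2 ratios and no measure of its abundance. Among the alternatives below, it served only to pick another probe set of a gene and as a trend for the prior variance. A gene was represented by its most variable probe set, which gave 18193 genes. A difference above 0 means a higher IL-4 change in WT cells and a difference below 0 a lower one; both are on the log2 scale and given ± the standard error (SE) of the limma fit, with n = 3 mice in each group. A gene was called when the adjusted p was under 0.05 and the difference was at least 1.5-fold. The p-values measure the spread between the 3 arrays of a group, pooled over all 8 groups, so that the RSG arrays enter the SE too. The fit held no term for the mouse, and precision is limited by how few arrays each group held. The median difference over all genes was 0.272, so the level against which a list of genes should be read lay above 0, and it was 0.103 once each array had been centred on its median and 0.0896 after quantile normalization.

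The arrays were first set against their labels. Levels of Stat6 itself ran from 0.741 to 1.01 in the 6 WT cultures and from -2.03 to -1.64 in the 6 KO cultures, with no overlap of the genotypes. Its difference of the IL-4 changes was 0.13 ± 0.17, which was not called. Of 13 measured genes of macrophage identity, 2 were called higher (15.4%) and 3 lower (23.1%), beside 9.47% and 5.5% of all genes. The M-CSF receptor gene Csf1r (difference -0.20 ± 0.17) and the adhesion receptor gene Adgre1 (0.39 ± 0.17) were not called. Called lower were the transcription factor genes Maf (-2.56 ± 0.28) and Irf8 (-1.02 ± 0.19) and the G-CSF receptor gene Csf3r (-1.84 ± 0.24), while the myeloid factor gene Cebpa (1.18 ± 0.17) and the endosomal protein gene Cd68 (0.74 ± 0.14) were called higher. For Maf, the probe set with the highest mean level gave -0.998 (adjusted p = 0.661), and the call for Cd68 was lost with centring and with quantile normalization. The mean level of this list was 0.193 ± 0.0439 (SD) in the WT control group, -0.203 ± 0.0294 in WT IL-4, 0.0923 ± 0.0658 in KO control and -0.211 ± 0.0642 in KO IL-4.

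Several groups held arrays that stood apart in the markers of other cells. The mean level of 11 mast cell and basophil genes was -1.40, -0.993 and 0.847 on the WT control arrays, -0.219, -0.418 and -0.566 on the WT IL-4 arrays, -1.54, -0.803 and -0.107 on the KO control arrays and 4.80, 4.55 and 5.07 on the KO IL-4 arrays. All 3 KO IL-4 arrays were far above the other 9, and the WT control array of mouse 3 was the highest of those 9. For 13 neutrophil and granule precursor genes the means were -0.771, -0.135 and 0.444 in WT control, -3.41, -3.03 and -2.95 in WT IL-4, -0.371, -0.208 and 0.272 in KO control and 3.01, 3.12 and 3.42 in KO IL-4. Here the KO IL-4 arrays were the highest and the WT IL-4 arrays the lowest, with the control arrays of both genotypes between them. The mean of 16 stromal fibroblast genes was 0.898, 2.82 and -0.348 on the WT control arrays, so that the arrays of mice 1 and 2 were raised over the third. The ratios have no true zero, so that none of these markers can be called absent. In RNA of a whole culture, fewer cells of a type and less RNA per cell cannot be told apart, and the part of these marker levels in the results that follow was not tested.

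**Figure D1:**
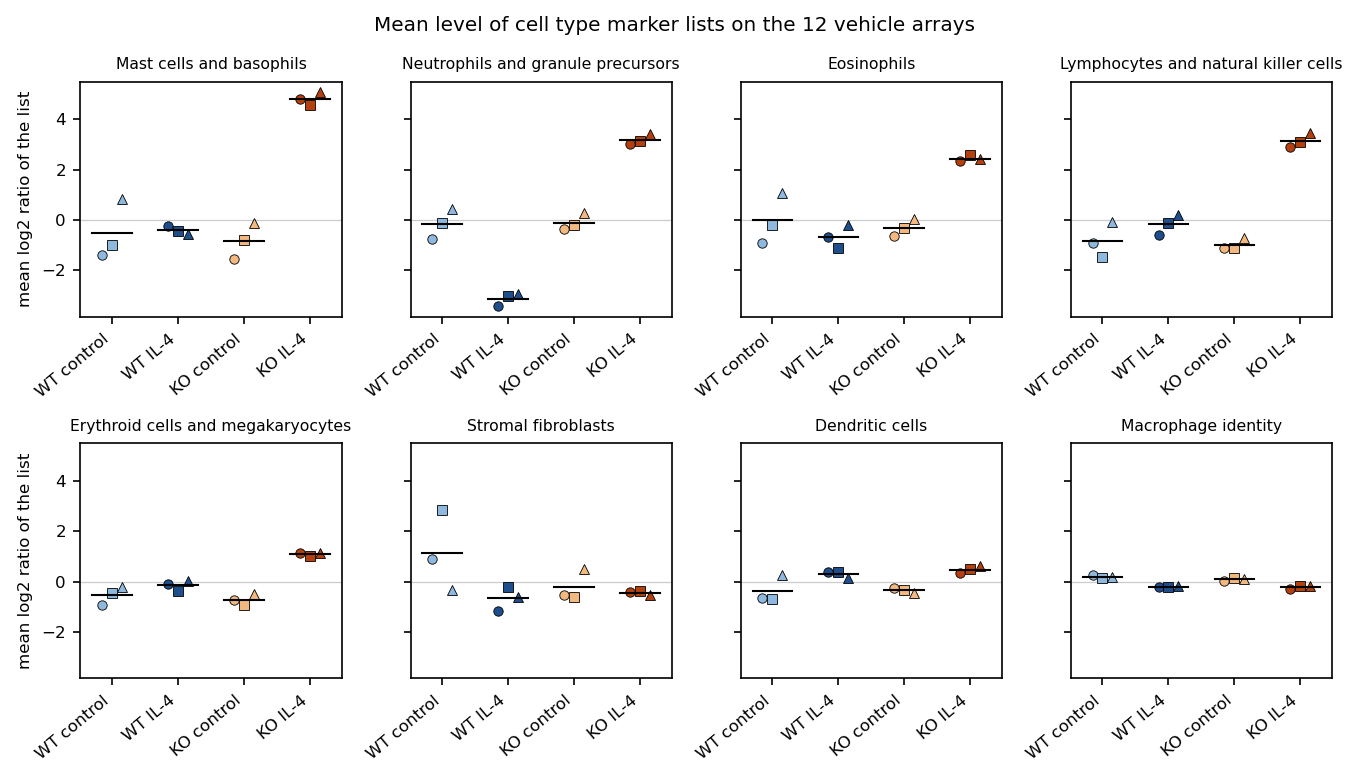
Mean log2 ratio to the probe set median of 8 lists of marker genes on each of the 12 vehicle arrays, by group, with 1 point for each mouse (shape) and a bar at the group mean. The mast cell and basophil mean was 4.55 to 5.07 on the KO IL-4 arrays and at most 0.847 elsewhere; the stromal mean reached 2.82 on the WT control array of mouse 2.

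Over all genes, 2723 of 18193 (15.0%) were called, of which 1723 (9.47%) had a higher IL-4 change in WT cells and 1000 (5.5%) a lower one. Every count of called genes in a list below is to be read beside these shares. The lists and their members were chosen with earlier results of these data known, so the counts are descriptions and not tests. The lower group was the more extreme: its median difference was -2.40, against 1.06 for the higher group, and 271 of the 1000 differed by at least 16-fold, against 87 of the 1723. The split between the directions depended on the scaling. With each array centred on its median, 1228 genes (6.75%) were called higher and 1218 (6.69%) lower, and after quantile normalization 843 (4.63%) and 970 (5.33%). All 1000 genes called lower were called lower with centring too and 899 with quantile normalization, whereas of the 1723 called higher 1228 and 842 were.

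A difference can come from the level in any of several groups, so the 4 group means were compared. A gene was assigned to the group whose mean lay farthest from the mean of the other groups. The rule had no margin, so a gene in which both IL-4 groups moved was still given to 1 of them. For the chemokine gene Cxcl10 the means were -3.39 in WT IL-4, 3.29 in KO IL-4, 0.315 in WT control and -0.339 in KO control. The counts therefore do not show that a single group carried a difference. Among the genes called higher, the WT IL-4 group was the one that stood high for 931 (54.0%) and the KO IL-4 group the one that stood low for 751 (43.6%). Among those called lower, the WT IL-4 group stood low for 493 (49.3%) and the KO IL-4 group stood high for 467 (46.7%). The WT and KO control groups were the ones apart for 25 and 16 of the genes called higher and for 12 and 28 of those called lower. The KO IL-4 arrays also lay low as a whole, with array medians of -0.225 to -0.124 where those of the other 9 vehicle arrays were -0.0601 to 0.0922. With each array centred on its median, the WT IL-4 group stood high for 1038 (60.2%) and the KO IL-4 group low for 625 (36.3%) of the same 1723 genes, and the WT IL-4 group stood low for 474 (47.4%) and the KO IL-4 group high for 497 (49.7%) of the same 1000.

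**Figure D2:**
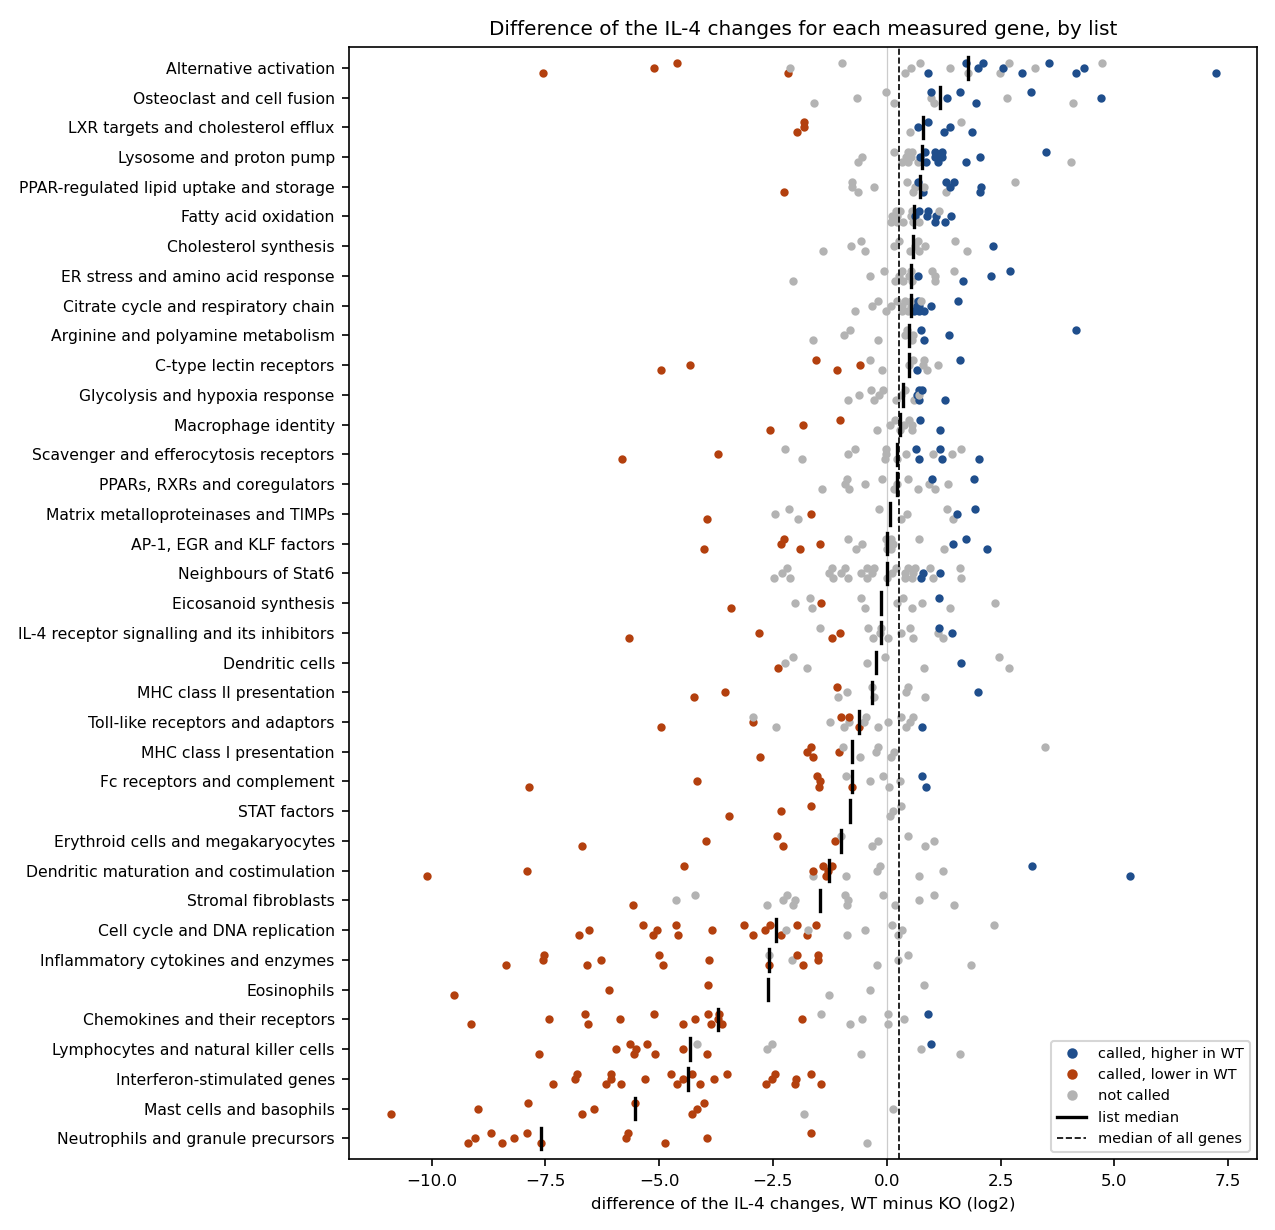
Difference of the IL-4 changes, WT minus KO (log2, x axis), for each measured gene of each list, with the lists ordered by their median (black bar); blue points were called higher, orange lower and grey points were not called, and the dashed line is the median of all genes, 0.272. Interferon-stimulated, neutrophil, mast cell and chemokine genes lie far to the left, and the alternative activation, osteoclast and lysosome lists lie to the right of the dashed line.

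The within-mouse changes in WT all lay above those in KO for 1708 of the 1723 genes called higher and 22.0% of all genes. They all lay below for 989 of the 1000 called lower and 10.9% of all genes. Non-overlap therefore removed few called genes. Among genes that were also called with centring, with quantile normalization and with the mouse as a block, and whose within-mouse changes did not overlap between genotypes, the 10 largest positive differences came from varied families. They were Shisa2 (10.1 ± 1.47), an inhibitor of WNT and FGF receptors, Il31ra (8.97 ± 1.38), a chain of the IL-31 receptor, and Lims2 (8.01 ± 0.99), an adaptor of integrin adhesions. Then came the tight junction gene Cldn11 (7.79 ± 1.37), the membrane protein gene Tmem26 (7.44 ± 0.57), the germ cell RNA helicase gene Ddx4 (6.94 ± 0.49) and Tceal7 (6.9 ± 0.74). The semaphorin gene Sema4b (6.87 ± 0.51), the sodium channel gene Scn3a (6.82 ± 1.54) and Srpx2 (6.63 ± 1.48), which encodes a secreted sushi-repeat protein, completed them.

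Tmem26 levels were -0.41, -0.47 and 0.53 on the WT control arrays, 6.79, 6.95 and 6.81 on the WT IL-4 arrays, -0.52, 0.81 and 0.16 on the KO control arrays and -0.42, -0.031 and -0.51 on the KO IL-4 arrays. Its highest values were those of the WT IL-4 arrays, which overlapped no other group. The difference was 7.44 ± 0.57 (adjusted p = 1.05e-07), and the call was lost only when the prior variance was allowed to follow the mean level (adjusted p = 0.821). The same was true of Ddx4 (adjusted p = 0.954 with that trend). Without the WT control array of mouse 3 the Tmem26 difference was 7.76. With the probe set of highest mean level, Shisa2 fell to 5.75 and Sema4b to 1.85 and both were still called.

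**Figure D3:**
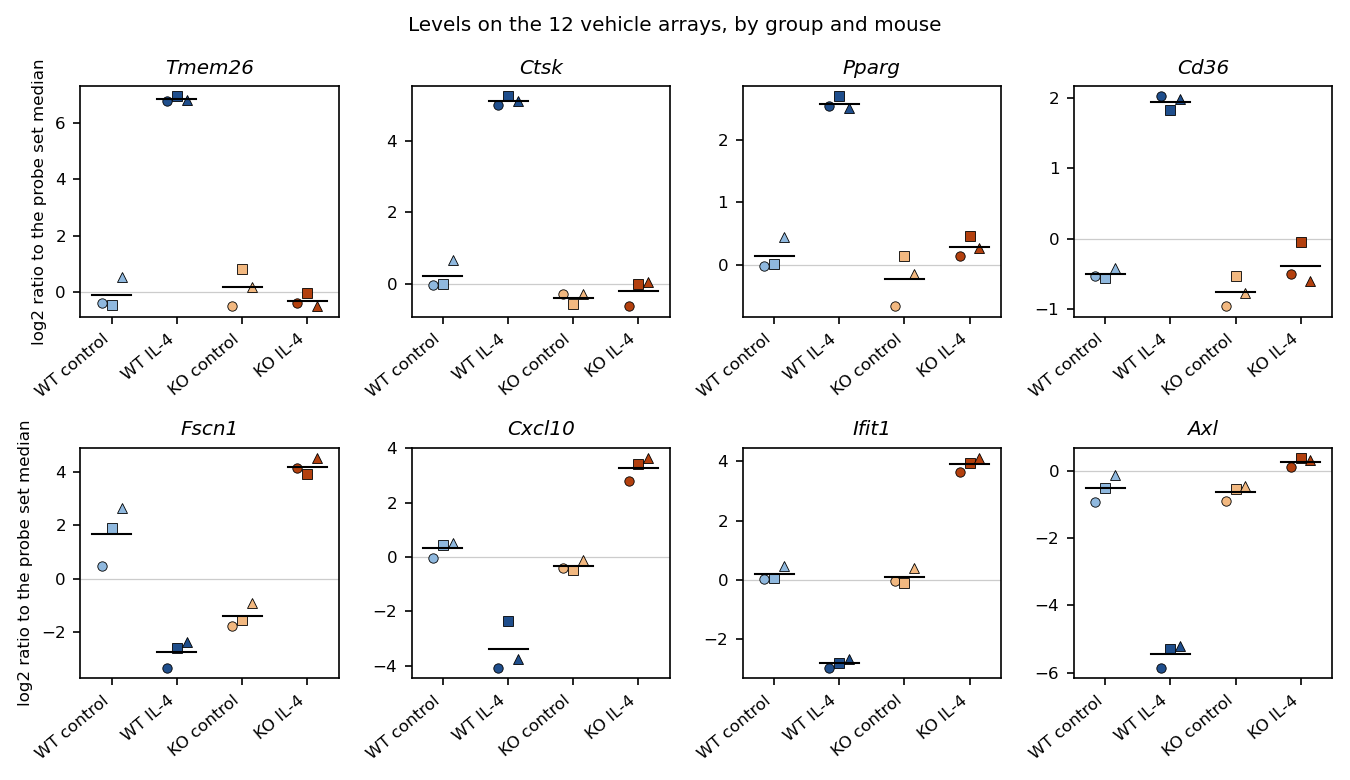
Log2 ratio to the probe set median of 8 genes on the 12 vehicle arrays, by group, with 1 point for each mouse (shape) and a bar at the mean of 3 mice. Tmem26, Ctsk, Pparg and Cd36 were called higher in WT, with differences of 7.44, 4.7, 1.92 and 2.08, and Fscn1, Cxcl10, Ifit1 and Axl lower, with differences of -10.1, -7.33, -6.8 and -5.82.

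STAT6 dimers bind palindromes in which TTC and GAA are set 4 bases apart, whereas in the TTCNNNGAA of other STATs they are set 3 bases apart. Among genes with a RefSeq promoter window (250 bases before to 50 after a start site, assembly GRCm38.p6, both strands, overlaps with other motifs allowed), the STAT6 palindrome occurred in 7.68% of those called higher, 7.5% of those called lower and 6.82% of those not called. The share was 6.94% over the 14452 measured genes with a window, and 8.01% over all genes with a window, measured or not. The motif was thus about equally frequent in every class. The 250 bases before the start of 3 genes with large positive differences are shown because each holds the palindrome, in capitals on the strand of the gene. Tmem26 lies at chr10:68723496-68723745 on the plus strand with 2 matches, the first 227 to 218 bases before the start, and Srpx2 at chrX:133908175-133908424 on the plus strand with 1 match, 40 to 31 bases before it. Rbp4, the retinol carrier of plasma (difference 5.55 ± 0.85), lies at chr19:38125322-38125571 on the minus strand with 1 match, 120 to 111 bases before the start. It was chosen after its value and sequence were seen.
Tmem26: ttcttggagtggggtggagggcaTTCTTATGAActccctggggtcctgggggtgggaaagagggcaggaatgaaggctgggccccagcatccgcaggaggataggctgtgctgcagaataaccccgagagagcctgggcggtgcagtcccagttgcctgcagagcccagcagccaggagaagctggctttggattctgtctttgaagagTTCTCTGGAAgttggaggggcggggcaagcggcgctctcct
Srpx2: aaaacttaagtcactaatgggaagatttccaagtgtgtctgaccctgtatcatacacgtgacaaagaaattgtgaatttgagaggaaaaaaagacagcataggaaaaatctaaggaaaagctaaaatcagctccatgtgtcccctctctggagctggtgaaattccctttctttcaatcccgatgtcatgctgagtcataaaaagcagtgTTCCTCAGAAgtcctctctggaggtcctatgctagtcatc
Rbp4: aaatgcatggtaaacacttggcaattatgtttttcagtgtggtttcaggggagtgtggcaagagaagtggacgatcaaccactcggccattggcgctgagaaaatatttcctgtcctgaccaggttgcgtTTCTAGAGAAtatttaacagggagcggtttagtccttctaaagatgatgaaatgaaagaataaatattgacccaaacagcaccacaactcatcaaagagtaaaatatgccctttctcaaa
A match is a description of these letters and not of binding. The STAT6 palindrome was held by 4 of 16 alternative activation genes with a window and equally by 4 of 16 interferon-stimulated genes, by 2 of 10 genes of lipid uptake and storage and by none of 18 genes of fatty acid oxidation. The PPAR element, a direct repeat of AGGTCA with 1 base between the copies, occurred in 7 of 14452 measured genes (0.0484%), none of them called. With so few matches, called genes and other genes cannot be compared for it.

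In the receptor and its signalling chain, 2 of 17 measured genes were called higher and 4 lower, with a list median of -0.133. These were 11.8% and 23.5% of the list, beside 9.47% and 5.5% of all genes. The receptor gene Il4ra was not called (-0.30 ± 0.52), and its sign turned without mouse 4. Called lower were the cytokine signalling inhibitor gene Socs3, the alternative receptor chain gene Il13ra1 (-2.81 ± 0.33), the kinase gene Jak3 (-1.2 ± 0.24) and the phosphatase gene Ptpn6 (-1.02 ± 0.17). Socs3 levels were 0.18, 0.59 and 0.58 on the WT control arrays, -3.25, -3.95 and -3.79 on the WT IL-4 arrays, 0.038, -0.082 and -0.039 on the KO control arrays and 1.37, 1.45 and 1.74 on the KO IL-4 arrays. The WT IL-4 arrays were the lowest and the 3 KO IL-4 arrays overlapped none of them, which gave a difference of -5.66 ± 0.72 (adjusted p = 2.74e-05). The probe set of highest mean level gave -3.04 for Socs3 and -1.73 for Il13ra1, both still called, and -0.287 (adjusted p = 0.37) for Ptpn6. Called higher were the transcriptional repressor gene Bcl6 (1.44 ± 0.28), a STAT target in lymphocytes, and the inhibitor gene Cish (1.14 ± 0.32). The Cish call was lost in 7 alternatives, among them without mouse 1, 2 or 4, without the WT control or WT IL-4 array of mouse 2 and without the KO control array of mouse 6, where adjusted p reached 0.142 at most and 1 gene of the list was left as called higher in 4 of these and with centring. Of 6 measured STAT genes, 3 were called lower, Stat2 (-2.33 ± 0.40), Stat4 (-3.47 ± 1.03) and Stat3 (-1.67 ± 0.47). The Stat3 and Stat4 calls were each lost in 11 alternatives (adjusted p up to 0.517 and 0.144), and 1 STAT gene was left without mouse 2, 3, 5 or 6, without the WT control array of mouse 2 or without the KO IL-4 array of mouse 6.

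Alternative activation genes had a median difference of 1.78, which was 1.5 above the median of all genes, and 10 of the 25 were called higher and 4 lower. The mannose receptor gene Mrc1, an endocytic lectin, had levels of 0.39, -0.34 and 0.043 on the WT control arrays, 1.13, 0.94 and 1.06 on the WT IL-4 arrays, -0.046, 0.28 and 0.23 on the KO control arrays and -1.07, -0.85 and -0.95 on the KO IL-4 arrays. The KO IL-4 arrays were the lowest and overlapped no other group. Its difference was 2.12 ± 0.29 (adjusted p = 5.45e-05). Further genes called higher were Ch25h (4.33 ± 0.70), the cholesterol 25-hydroxylase, Pdcd1lg2 (2.97 ± 0.49), the PD-1 ligand PD-L2, and the zinc finger factor gene Egr2 (2.55 ± 0.41). Chil4 (4.16 ± 1.32), a chitinase-like protein gene, and Rnase2a (7.23 ± 2.21), an eosinophil-type ribonuclease gene, were also called, but the calls were lost in 17 and 18 alternatives (adjusted p up to 0.196 and 0.987).

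In the same list 4 genes were called lower. They were the coagulation factor XIII gene F13a1 (-7.55 ± 0.64), the CCR4 ligand gene Ccl22 (-5.12 ± 0.86), the 12/15-lipoxygenase gene Alox15 (-4.61 ± 1.28) and the interleukin-1 receptor antagonist gene Il1rn (-2.17 ± 0.40). For Ccl22, Alox15 and Il1rn the KO IL-4 arrays stood high, and for F13a1 the WT IL-4 arrays stood low. The Alox15 call was lost in 8 alternatives, with adjusted p = 0.0566 and a difference of -3.57 without the WT control array of mouse 3. The number called higher was 6 without mouse 1, 4 or 5 and 6 with quantile normalization, where 3 were called lower. Over the removal of any mouse or array it ran from 6 to 13. The mean level of the list on the WT control arrays was -0.881, -1.03 and 1.22, the last on that of mouse 3.

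The widely used markers Retnla and Arg1 were not called, and 1 array decided this. Retnla, which encodes the secreted protein FIZZ1, had levels of -1.89, -2.1 and 5.88 on the WT control arrays, 7.73, 7.66 and 7.68 on the WT IL-4 arrays, -2.58, -1.54 and -2.26 on the KO control arrays and 0.62, -0.29 and 0.24 on the KO IL-4 arrays. The WT control array of mouse 3 was the highest outside the WT IL-4 group, and the other WT control arrays were among the lowest. The difference was 4.74 ± 1.83 (adjusted p = 0.0954) with that array and 7.37 (adjusted p = 2.58e-08) without it. Arg1, the arginase that splits arginine into ornithine and urea, had levels of -3.38, -2.71 and 2.19 on the WT control arrays, 8.35, 8.36 and 8.42 on the WT IL-4 arrays, -4.77, -5.42 and -3.16 on the KO control arrays and 2.56, 3.63 and 4.17 on the KO IL-4 arrays. The same array stood above the other control arrays of both genotypes, and the KO IL-4 arrays lay between the control and the WT IL-4 arrays. Its difference was 1.78 ± 1.41 (adjusted p = 0.48) with the array and 3.52 (adjusted p = 0.00913) without it, and that of the chitinase-like gene Chil3 was 1.09 (adjusted p = 0.0823) without it. With all arrays and quantile normalization the differences of Retnla and Arg1 were 2.29 and 0.147.

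Among PPARs, RXRs and their coregulators, 2 of 15 were called higher and the list median, 0.232, was near that of all genes. The share called higher, 13.3%, was near the 9.47% of all genes. Pparg levels were -0.015, 0.015 and 0.46 on the WT control arrays, 2.54, 2.69 and 2.5 on the WT IL-4 arrays, -0.65, 0.15 and -0.14 on the KO control arrays and 0.15, 0.47 and 0.27 on the KO IL-4 arrays. All other arrays lay below the WT IL-4 arrays. The difference was 1.92 ± 0.34 (adjusted p = 0.000801). The coactivator gene Ppargc1b, which raises mitochondrial gene expression, was the other gene called (1.00 ± 0.21), and the partner receptor gene Rxra was not (1.05 ± 0.95). With centring, with quantile normalization or without the KO IL-4 array of mouse 4, 1 gene of the list was called lower. Known PPAR and LXR genes that were not called were the lipase inhibitor gene Angptl4 (0.62 ± 0.79), the pyruvate dehydrogenase kinase gene Pdk4 (0.81 ± 1.42), the desaturase gene Scd1 (-0.77 ± 1.03) and the LXRα gene Nr1h3 (0.51 ± 0.32). The chemokine gene Ccl17 (-0.99 ± 1.12), which IL-4 is known to induce, was not called either.

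Lipid uptake and storage genes were called higher in 7 of 18 cases and lower in 1, with a median of 0.735. Cd36, which encodes a scavenger receptor and fatty acid translocase, had levels of -0.53, -0.56 and -0.41 on the WT control arrays, 2.02, 1.83 and 1.99 on the WT IL-4 arrays, -0.96, -0.53 and -0.77 on the KO control arrays and -0.51, -0.043 and -0.59 on the KO IL-4 arrays. Its WT IL-4 arrays were the highest, with a difference of 2.08 ± 0.28. Also called higher were the fatty acid binding protein gene Fabp4 (1.31 ± 0.28), for which the KO IL-4 group stood low, the lipid droplet gene Hilpda (1.48 ± 0.32) and the desaturase gene Scd2 (2.05 ± 0.58). The Scd2 call was lost in 5 alternatives (adjusted p up to 0.102), all of them without mouse 1, 2, 3 or 4 or the WT IL-4 array of mouse 1. The 1 gene called lower, the triglyceride synthesis gene Dgat2 (-2.26 ± 0.72), lost its call in 17 alternatives (adjusted p up to 0.189). Without mouse 1 or with quantile normalization the list held 4 genes called higher, and without mouse 2 it held 3.

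Energy metabolism moved by smaller amounts. In fatty acid oxidation 8 of 20 genes were called higher and none lower. The 2 subunits of the mitochondrial trifunctional protein, Hadha (1.42 ± 0.16) and Hadhb (1.27 ± 0.17), led the list, followed by the isomerase gene Ech1 (1.09 ± 0.16). The list median was 0.605, which was 0.334 above that of all genes. As deposited, every measured member had a positive difference. The lowest, 0.085, was below the median of all genes, 0.272, so that this shared sign depends on the scaling. With centring 6 were called and with quantile normalization 5. In the citrate cycle and respiratory chain 8 of 21 were called higher, among them the malate dehydrogenase gene Mdh2 (0.81 ± 0.19) and the ATP synthase gene Atp5b (0.96 ± 0.23). This count was 2 with centring, 0 with quantile normalization, 3 without mouse 2, 2 without mouse 3 and 5 without the KO IL-4 array of mouse 4, so that its calls rested on the scaling and on these mice. The Idh3b call (1.57 ± 0.52) was lost in 20 alternatives (adjusted p up to 0.208), the Mdh2 call with quantile normalization and without mouse 2 or 3, and the Atp5b call with quantile normalization and without mouse 3.

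For glycolysis, 5 of 16 genes were called higher and the median, 0.354, was 0.0821 above that of all genes. The glucose transporter gene Slc2a1 (1.29 ± 0.27) was called under every alternative, whereas the lactate dehydrogenase gene Ldha (0.71 ± 0.21) and the aldolase gene Aldoa (0.77 ± 0.18) lost their calls in 12 and 3. With centring 2 genes were called, with quantile normalization 1, without mouse 2 2, without mouse 3 1 and without the KO IL-4 array of mouse 4 3. Only Dhcr7 (2.34 ± 0.35), the last enzyme of cholesterol synthesis, was called among 14 genes of that pathway, but 3 were called lower with centring, and 1 without the WT control array of mouse 3.

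Cholesterol export genes divided. Of 10 measured LXR targets and efflux genes, 5 were called higher and 3 lower. The sterol transporter gene Abcg1 (1.87 ± 0.32) and the phospholipid transfer protein gene Pltp (1.39 ± 0.20) were called higher, with 1.23 for Abcg1 from its probe set of highest mean level. Apoe, which encodes the main apolipoprotein that macrophages secrete, had levels of -0.0054, -0.023 and 0.17 on the WT control arrays, -2.27, -2.32 and -1.56 on the WT IL-4 arrays, 0.034, 0.17 and 0.18 on the KO control arrays and -0.25, -0.093 and -0.10 on the KO IL-4 arrays. Its lowest values were in the WT IL-4 group. The difference was -1.82 ± 0.27 (adjusted p = 0.000159), and its neighbours in the apolipoprotein cluster, Apoc1 (-1.81 ± 0.45) and Apoc2 (-1.98 ± 0.22), were called lower as well. The Abca1 call (1.26 ± 0.40) was lost in 17 alternatives (adjusted p up to 0.269), and the number called higher was 3 with centring, with quantile normalization or when any of mice 1, 4, 5 or 6 or any of 7 single arrays was left out.

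Genes of osteoclasts and cell fusion had a median of 1.18, which was 0.908 above that of all genes, and 6 of 14 were called higher and none lower. Ctsk, which encodes the collagen-degrading protease cathepsin K, had levels of -0.01, -0.0014 and 0.67 on the WT control arrays, 4.99, 5.23 and 5.1 on the WT IL-4 arrays, -0.29, -0.56 and -0.28 on the KO control arrays and -0.61, 0.0014 and 0.048 on the KO IL-4 arrays. The WT IL-4 arrays were above all others. The difference was 4.7 ± 0.55 (adjusted p = 1.07e-05). Cd81 (1.96 ± 0.35), a tetraspanin gene, was called higher under every alternative. Acp5 (3.18 ± 0.75), the tartrate-resistant acid phosphatase, was called, but not with quantile normalization or without mouse 1, 2 or 4 (adjusted p = 0.0816, 0.0512, 0.0697 and 0.0513). Without mouse 1 or its WT IL-4 array 1 gene was called lower.

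Lysosomal genes shifted in the same direction, with 11 of 22 called higher, none lower and a median of 0.778. The cathepsin L gene Ctsl, a main lysosomal protease, had levels of -0.043, 0.36 and 0.22 on the WT control arrays, 3.32, 3.08 and 3.23 on the WT IL-4 arrays, -0.20, -0.094 and 0.16 on the KO control arrays and -0.49, -0.39 and -0.70 on the KO IL-4 arrays. The highest were the WT IL-4 arrays, with a difference of 3.51 ± 0.24 (adjusted p = 3.32e-08). The proton pump subunits Atp6v0a1 (2.04 ± 0.30) and Atp6v1b2 (1.75 ± 0.22) were called higher too. The WT IL-4 group stood high for 6 of the 11 and the KO IL-4 group stood low for 5. Over the removal of any mouse or array, 9 to 13 genes were called higher, and 1 was called lower without mouse 1, with centring, with quantile normalization or without 1 of 5 single arrays.

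Smaller metabolic lists followed. For arginine and polyamine metabolism 4 of 12 were called higher, among them the cationic amino acid transporter genes Slc7a1 (1.37 ± 0.26) and Slc7a2 (4.16 ± 1.32) and the polyamine acetyltransferase gene Sat1 (0.83 ± 0.19). The Slc7a2 call was lost in 16 alternatives (adjusted p up to 0.259), the Sat1 call without mouse 2 (adjusted p = 0.0544), and the list then held 2. With quantile normalization 2 were called higher as well, and with centring or without the KO control array of mouse 5, 1 was called lower. For ER stress and the amino acid response 4 of 18 were called higher, led by the pseudokinase gene Trib3 (2.71 ± 0.60), the asparagine synthetase gene Asns (2.29 ± 0.42) and the serine synthesis gene Psat1 (1.67 ± 0.38). Without mouse 3 this list held 2, and adjusted p for Trib3 was 0.0501. Of 14 eicosanoid genes, the 5-lipoxygenase gene Alox5 (-3.42 ± 0.45) and the prostaglandin D synthase gene Hpgds (-1.45 ± 0.32) were called lower and the lysosomal phospholipase gene Pla2g15 (1.15 ± 0.28) higher. The Hpgds call was lost without mouse 2 (adjusted p = 0.0514) and that of Pla2g15 with quantile normalization, where none was called higher, and 2 genes were called higher without mouse 6 or without 1 of 4 single arrays.

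Among matrix metalloproteinases and their inhibitors, 2 of 12 were called in each direction. That was 16.7% each way, beside 9.47% of all genes called higher and 5.5% called lower. The membrane-bound collagenase gene Mmp14 (-3.94 ± 0.60) and the neutrophil collagenase gene Mmp8 (-1.67 ± 0.30) were called lower, and the shedding protease gene Adam8 (1.54 ± 0.21) and Mmp19 (1.94 ± 0.38) higher. The list median, 0.067, was -0.10 with centring and -0.20 with quantile normalization. Of 19 AP-1, EGR and KLF factors, which respond early to many signals, 3 were called higher and 5 lower. Jun (2.2 ± 0.24), Atf3 (1.45 ± 0.21) and Klf4 (1.74 ± 0.51) were higher and Egr3 (-4.02 ± 0.48), Nr4a1 (-2.33 ± 0.41) and Ier2 (-2.26 ± 0.30) were among the lower. The Klf4 call was lost in 10 alternatives (adjusted p up to 0.113) and the Egr3 call with the probe set of highest mean level (-0.676, adjusted p = 0.707).

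Receptors on the macrophage surface differed in both directions. Of 19 scavenger and efferocytosis receptors 5 were called higher and 2 lower. Higher were Mfge8 (2.03 ± 0.24) and Pros1 (1.22 ± 0.18), which encode bridging proteins that tie dying cells to phagocytes, and the endocytic receptor gene Lrp1 (1.18 ± 0.18). Lower were Axl, a receptor kinase that binds such a bridge, and the scavenger receptor gene Stab1. Axl levels were -0.94, -0.52 and -0.13 on the WT control arrays, -5.85, -5.28 and -5.22 on the WT IL-4 arrays, -0.90, -0.56 and -0.45 on the KO control arrays and 0.12, 0.37 and 0.31 on the KO IL-4 arrays. The WT IL-4 arrays were the lowest and the KO IL-4 arrays the highest, and the difference was -5.82 ± 0.28 (adjusted p = 6.21e-10). Stab1 levels were 1.45, 1.32 and 1.13 on the WT control arrays, -4.42, -4.32 and -4.07 on the WT IL-4 arrays, 1.5, 1.65 and 1.64 on the KO control arrays and -0.18, -0.32 and -0.27 on the KO IL-4 arrays. Here too the WT IL-4 arrays were the lowest, with a difference of -3.71 ± 0.32 (adjusted p = 4.05e-07). Another Axl probe set, that with the highest mean level, gave 2.41 (adjusted p = 0.415), with ratios under 0.1 raised to 0.1 the Axl difference was -3.69, and another Lrp1 probe set gave 0.481 (adjusted p = 0.298). With centring 3 of the list were called higher and 3 lower.

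Of 19 Toll-like receptors and adaptors 5 were called lower (26.3%) and 1 higher (5.26%), beside 5.5% and 9.47% of all genes. Tlr2, which recognises bacterial lipoproteins, had levels of 0.23, 0.034 and 0.061 on the WT control arrays, -5.16, -5.27 and -4.84 on the WT IL-4 arrays, -0.0092, 0.26 and 0.28 on the KO control arrays and -0.24, 0.049 and 0.0091 on the KO IL-4 arrays. Its WT IL-4 arrays were the lowest, and its difference was -4.96 ± 0.35 (adjusted p = 4.67e-08), or -3.19 with ratios under 0.1 raised to 0.1. Its co-receptor gene Cd14 (-2.94 ± 0.22) and the RNA sensor gene Tlr7 (-1.0 ± 0.29) were lower, and the adaptor gene Ticam1 (0.77 ± 0.22) was higher. The calls for Tlr7 and Ticam1 were lost in 12 and 9 alternatives (adjusted p up to 0.121 and 0.177), Ticam1 among them without mouse 2, 3 or 5. With centring 8 genes were called lower, and with quantile normalization 4 lower and none higher. The count lower was 3 without mouse 2 or 5, without the KO IL-4 array of mouse 5 or without the WT IL-4 array of mouse 2.

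C-type lectin receptors were called lower for 5 of 15 genes (33.3%) and higher for 2 (13.3%), beside 5.5% and 9.47% of all genes. Clec4e (-4.97 ± 0.66), which encodes the mycobacterial glycolipid receptor Mincle, and Clec4n (-4.33 ± 0.33), which encodes Dectin-2, were lowest. The lower count was 2 without mouse 2 or 5, and 3 without mouse 1 or 6 or without 1 of 5 single arrays. The Clec1b call (-1.56 ± 0.43) was lost in 4 alternatives, with adjusted p = 0.0526 without the WT control array of mouse 3. The 2 genes called higher, Clec4a2 (0.67 ± 0.20) and Clec4b1 (1.6 ± 0.44), lost their calls in 17 and 9 alternatives, and neither was called with quantile normalization or without mouse 1, 2, 5 or 6. Among Fc receptors and complement genes 6 of 13 were called lower, among them the complement factor B gene Cfb (-7.87 ± 0.98), the high-affinity IgG receptor gene Fcgr1 (-4.17 ± 0.35) and the C1q chain gene C1qa (-1.54 ± 0.25), and 2 higher, the integrin chain gene Itgb2 (0.87 ± 0.14) and the anaphylatoxin receptor gene C3ar1 (0.76 ± 0.18), with 1 of these left without mouse 3 or with quantile normalization.

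For antigen presentation by MHC class I, 5 of 12 genes were called lower. The class I transactivator gene Nlrc5 (-2.78 ± 0.42) and the immunoproteasome subunit genes Psmb9 (-1.76 ± 0.22) and Psmb8 (-1.66 ± 0.44) led them, and the Psmb8 call was lost without mouse 1 or 5. For class II, 3 of 11 were lower, the peptide-loading modulators H2-Ob (-4.23 ± 0.76) and H2-Oa (-3.55 ± 0.45) and H2-DMa (-1.1 ± 0.35), whose call was lost in 17 alternatives (adjusted p up to 0.221). The lysosomal thiol reductase gene Ifi30 (2.0 ± 0.20) was higher, and without the KO IL-4 array of mouse 5 a further gene was.

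Interferon-stimulated genes formed the most uniform list. All 22 measured members were called lower, where 5.5% of all genes were, with a median of -4.37. Ifit1, whose product binds foreign RNA ends, had levels of 0.02, 0.07 and 0.47 on the WT control arrays, -2.96, -2.8 and -2.65 on the WT IL-4 arrays, -0.02, -0.11 and 0.40 on the KO control arrays and 3.64, 3.95 and 4.11 on the KO IL-4 arrays. The KO IL-4 arrays were the highest and overlapped no other group, and the difference was -6.8 ± 0.31 (adjusted p = 3.95e-10). Cxcl10, a ligand of the chemokine receptor CXCR3, had levels of -0.036, 0.45 and 0.53 on the WT control arrays, -4.07, -2.35 and -3.74 on the WT IL-4 arrays, -0.41, -0.48 and -0.13 on the KO control arrays and 2.81, 3.42 and 3.64 on the KO IL-4 arrays. Its WT IL-4 arrays were the lowest, with a difference of -7.33 ± 0.52 (adjusted p = 4.67e-08). Ifit3 (-6.84 ± 0.38) and Ifit2 (-6.07 ± 0.44), the RNA-sensing synthetase gene Oas3 (-6.16 ± 0.66), the antiviral GTPase gene Mx1 (-6.07 ± 0.43) and the transcription factor gene Irf7 (-5.84 ± 0.47) had the next largest differences. By the rule of the farthest mean, which has no margin, the KO IL-4 group stood high for 19 of the 22. The WT IL-4 group stood low for 2 and the KO control group for 1. The mean level of the list was 2.67, 2.99 and 3.10 on the KO IL-4 arrays and -1.24, -0.935 and -0.790 on the WT IL-4 arrays. Leaving out any mouse or array left 20 to 22 called, with the call of Rtp4 lost without mouse 3 (adjusted p = 0.0532). The mast cell, neutrophil and lymphocyte marker means were raised on the same KO IL-4 arrays (4.81, 3.18 and 3.15), and their part in this result was not tested.

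The promoters of these genes are shown because the interferon response element, in which the letters GAAA occur again after 2 bases, was present in 8.51% of genes called lower, 2.99% of genes called higher and 3.39% of genes not called. Of the 16 interferon-stimulated genes with a window 10 held it (62.5%), and of 16 alternative activation genes none did. The 250 bases before the start of 3 of them follow on the strand of the gene, from GRCm38.p6 as given by RefSeq, with the element in capitals in either orientation. Cxcl10 lies at chr5:92348890-92349139 on the minus strand with 1 match, 213 to 204 bases before the start. Ifit3 lies at chr19:34583279-34583528 on the plus strand, with the first of 2 matches 156 to 147 bases before the start, and Ifit1 at chr19:34640639-34640888 on the plus strand, with the first of 2 matches 104 to 95 bases before it.
Cxcl10: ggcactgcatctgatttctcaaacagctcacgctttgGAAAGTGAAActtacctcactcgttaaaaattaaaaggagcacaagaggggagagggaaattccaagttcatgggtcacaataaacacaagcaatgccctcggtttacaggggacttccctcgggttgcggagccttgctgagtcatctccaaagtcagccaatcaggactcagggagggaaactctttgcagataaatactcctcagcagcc
Ifit3: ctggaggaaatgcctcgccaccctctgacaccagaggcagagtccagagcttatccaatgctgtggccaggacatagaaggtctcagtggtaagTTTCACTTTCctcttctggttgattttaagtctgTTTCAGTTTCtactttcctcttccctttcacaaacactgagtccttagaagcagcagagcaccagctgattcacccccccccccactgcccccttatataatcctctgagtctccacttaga
Ifit1: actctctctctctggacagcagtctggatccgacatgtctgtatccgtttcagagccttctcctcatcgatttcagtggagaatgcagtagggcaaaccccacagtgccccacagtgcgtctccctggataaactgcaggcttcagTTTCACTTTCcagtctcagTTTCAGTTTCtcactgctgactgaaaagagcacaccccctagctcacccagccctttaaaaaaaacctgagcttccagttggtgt
The element of the other STATs, TTCNNNGAA, occurred in 11.6% of genes called lower, 7.89% of genes called higher and 8.46% of genes not called. These shares are given without a test.

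Inflammatory cytokines and enzymes were called lower for 13 of 19 genes and higher for none, with a median of -2.58. The prostaglandin synthase gene Ptgs2 (-8.37 ± 1.51) had the lowest difference, followed by the interleukin gene Il6 (-7.56 ± 1.58) and Acod1 (-7.53), which encodes the enzyme that makes itaconate. Il1b (-5.01 ± 0.45) and Tnf (-1.97 ± 0.35), the classical products of endotoxin-activated macrophages, were lower too. The KO IL-4 group stood high for 8 of the 13 and the WT IL-4 group stood low for 5. Of 21 chemokines and chemokine receptors, 14 were called lower with a median of -3.70, among them the CXCR3 ligand gene Cxcl9 (-9.14 ± 1.65), the monocyte receptor gene Ccr2 (-7.43 ± 0.60) and the neutrophil attractant gene Cxcl3 (-6.64 ± 0.91). Cxcl14 (0.91 ± 0.23) was the only member called higher, which was lost in 5 alternatives, among them without mouse 2, 3, 5 or 6, and without the WT control array of mouse 3 the count higher was 2.

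Genes of dendritic cell maturation were called lower in 8 of 16 cases and higher in 2, with a median of -1.26. Fscn1, which bundles actin in the dendrites of mature dendritic cells, had levels of 0.47, 1.9 and 2.65 on the WT control arrays, -3.36, -2.6 and -2.4 on the WT IL-4 arrays, -1.79, -1.56 and -0.93 on the KO control arrays and 4.18, 3.92 and 4.54 on the KO IL-4 arrays. The KO IL-4 arrays were the highest. The difference was -10.1 ± 1.2 (adjusted p = 1.43e-05), and -9.61 without the WT control array of mouse 3. The lymph node homing receptor gene Ccr7 (-7.91 ± 1.54) and the costimulatory ligand gene Cd86 (-4.45 ± 0.28) were lower as well. The integrin gene Itgax (3.19 ± 0.51), which encodes CD11c, and the lymphocyte adhesion receptor gene Slamf1 (5.34 ± 1.48) were called higher, and the Slamf1 call was lost in 6 alternatives, which left 1 with quantile normalization, without mouse 1, 2 or 5, without the KO IL-4 array of mouse 4 or without the KO control array of mouse 5. Among 10 dendritic cell markers, 1 was called in each direction, the tetherin gene Bst2 (-2.38 ± 0.23), which interferon also induces, and the transcription factor gene Batf3 (1.64 ± 0.40). The Batf3 call was lost with quantile normalization and without mouse 1 or 2, and without the WT IL-4 array of mouse 2 or the WT control array of mouse 1 or with the mouse as a block, a second marker was called lower.

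Cell cycle and DNA replication genes were called lower for 16 of 24 genes and higher for none, with a median of -2.44. The largest differences were those of the cyclin gene Ccnb2 (-6.77 ± 1.2), the mitotic checkpoint kinase gene Bub1 (-6.55 ± 1.05) and the ribonucleotide reductase gene Rrm2 (-5.36 ± 0.62). The proliferation marker gene Mki67 had a difference of -4.62 ± 0.32 (adjusted p = 4.11e-08). The mean level of the list was -1.71, -1.50 and -1.45 on the WT IL-4 arrays and 0.673, 1.06 and 1.00 on the KO IL-4 arrays, with means of 0.114 and -0.0485 in the WT and KO control groups. The WT IL-4 group stood low for 12 of the 16 and the KO IL-4 group stood high for 4. Leaving out any mouse or array left 14 to 18 called. On 1 WT IL-4 array each, Ccnb2 and Bub1 lay at the lowest ratio that was deposited, 0.01, and over the alternatives the difference ran from -8.52 to -4.64 for Ccnb2 and from -7.82 to -2.62 for Bub1, the last with another probe set.

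**Figure D4:**
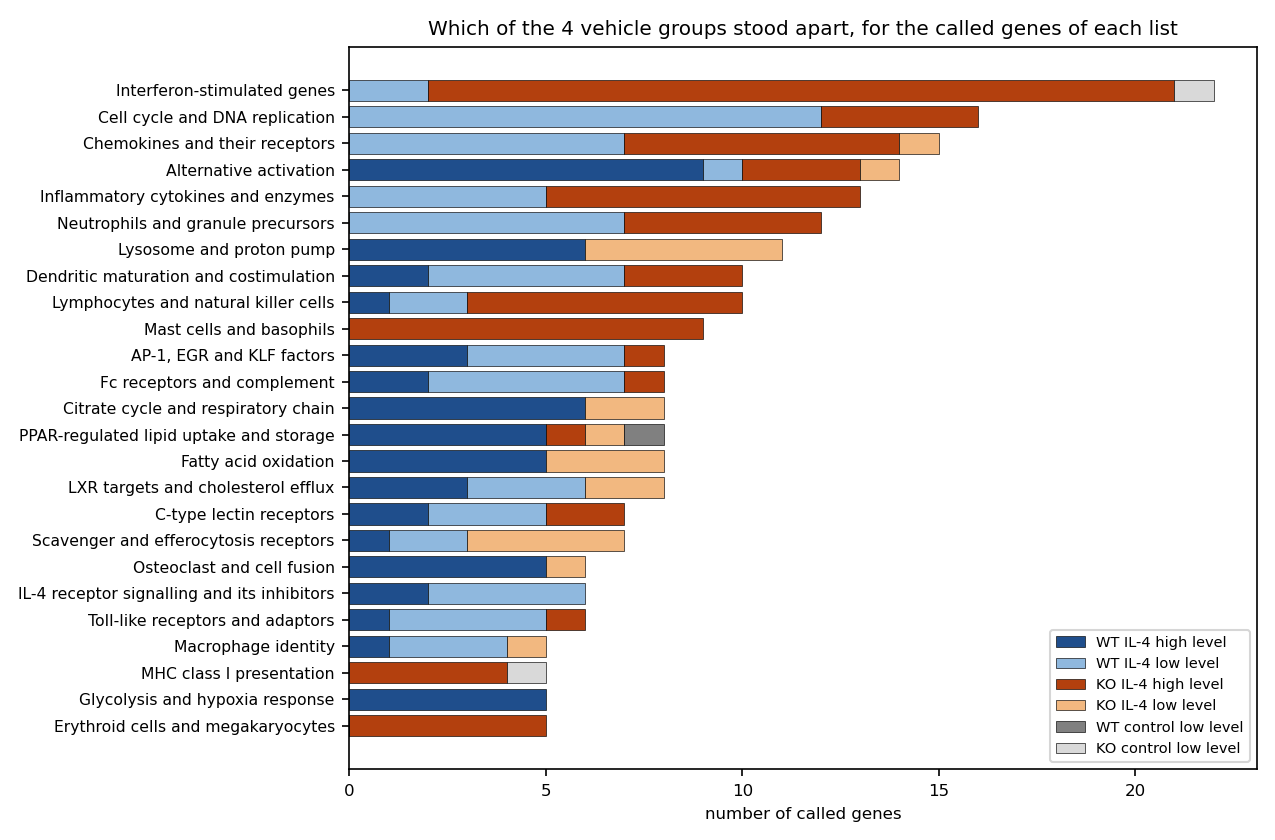
Number of called genes in each list with at least 5 calls (bars), divided by which of the 4 groups had the mean farthest from the other groups. The KO IL-4 group stood high for 19 of 22 interferon-stimulated genes, and the WT IL-4 group stood low for 12 of 16 cell cycle genes.

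Markers of other blood cells gave some of the largest negative differences. All 9 mast cell and basophil genes that were called, of 11, were called lower with the KO IL-4 group standing high. The basophil protease gene Mcpt8 had levels of -1.22, -0.11 and 3.5 on the WT control arrays, -0.36, -1.18 and -1.12 on the WT IL-4 arrays, -1.05, 1.13 and 3.34 on the KO control arrays and 10.4, 10.2 and 10.6 on the KO IL-4 arrays. The KO IL-4 arrays were the highest, with a difference of -10.9 ± 1.56 (adjusted p = 9.52e-05), and -9.5 without the WT control array of mouse 3, whose value was above those of the other WT control arrays. The IgE receptor gene Fcer1a (-8.99 ± 0.93), the histamine synthesis gene Hdc (-7.89 ± 1.17) and the carboxypeptidase gene Cpa3 (-6.44 ± 1.44) were lower too. The calls for Fcer1a and Hdc were lost when the prior variance followed the mean level (adjusted p = 0.118 and 0.666), and that for Mcpt8 was lost in that alternative and with quantile normalization. Of 6 eosinophil genes 3 were lower, the granule protein genes Prg2 (-9.51 ± 1.2), Prg3 (-6.1 ± 1.1) and Epx (-3.93 ± 1.27), with the Epx call lost in 15 alternatives (adjusted p up to 0.146). Their mean level was 2.34, 2.56 and 2.41 on the KO IL-4 arrays and -0.928, -0.215 and 1.09 on the WT control arrays.

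Neutrophil and granule precursor genes were called lower for 12 of 13 genes, with a median of -7.59. The siderophore-binding protein gene Lcn2 had levels of -0.81, -0.23 and 0.99 on the WT control arrays, -6.64, -5.74 and -5.63 on the WT IL-4 arrays, -0.0013, -0.19 and 0.21 on the KO control arrays and 2.59, 2.61 and 2.94 on the KO IL-4 arrays. The WT IL-4 arrays were the lowest and the KO IL-4 arrays the highest, and 1 WT IL-4 value lay at the lowest deposited ratio. The difference was -8.69 ± 0.64, and it ran from -9.09 to -6.01 over the alternatives. The proteinase 3 gene Prtn3 (-9.2 ± 1.05), the neutrophilic granule protein gene Ngp (-9.05 ± 0.52), the calprotectin subunit gene S100a9 (-8.18 ± 0.42) and the myeloperoxidase gene Mpo (-7.59 ± 0.75) were lower. Ngp also had 1 WT IL-4 array at that ratio, and with ratios under 0.1 raised to 0.1 its difference was -5.95 and that of S100a9 -4.85. The WT IL-4 group stood low for 7 of the 12 and the KO IL-4 group stood high for 5.

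Of 16 lymphocyte and natural killer cell genes 9 were called lower, among them the B cell gene Ms4a1 (-7.65 ± 1.0), which encodes CD20, the granzyme gene Gzmc (-5.94 ± 1.32), the receptor gene Klrd1 (-5.64 ± 0.51) and the T cell receptor subunit gene Cd3d (-5.55 ± 1.18), and the cytokine receptor gene Il7r (0.96 ± 0.25) was called higher, though not without mouse 6 or with quantile normalization. Another Ms4a1 probe set gave -3.52. Of 11 erythroid and megakaryocyte genes 5 were lower, such as the platelet chemokine gene Ppbp (-6.69 ± 0.59) and the erythroid factor gene Gata1 (-2.41 ± 0.54). Gp9 (-3.98 ± 1.2), a platelet glycoprotein gene, lost its call in 14 alternatives. Among 16 stromal fibroblast genes only the surface glycoprotein gene Thy1 (-5.57 ± 0.81) was called, with a list median of -1.46, and 2 were called without mouse 3 or its WT control array or with quantile normalization, and 3 with the mouse as a block. On the RSG arrays the stromal list had 2 genes called higher, none lower and a median of 2.84, opposite in sign to that on vehicle arrays.

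By the same rule, the 10 largest negative differences came in part from these lists. Besides Fscn1, Prg2, Prtn3, Cxcl9, Ngp and Fcer1a they included the sodium pump subunit gene Atp1b1 (-9.19 ± 1.95), the haemoglobin-binding haptoglobin gene Hp (-8.81 ± 0.64), the natural killer receptor gene Klrc1 (-8.8 ± 1.37) and the plasminogen activator inhibitor gene Serpinb2 (-8.7 ± 1.72). Haptoglobin is also made by neutrophil precursors. Around the Stat6 locus, 3 of 31 measured neighbours were called higher (9.68%), which was close to the 9.47% of all genes. They were the dynactin subunit gene Dctn2 (0.75 ± 0.15), the methionyl-tRNA synthetase gene Mars1 (0.80 ± 0.24) and Lrp1. No neighbour was called lower, though 1 was without mouse 2 or its WT IL-4 array. With centring 1 neighbour was called in each direction and with quantile normalization 1 was called higher, the Dctn2 call being lost in both. The count higher was 5 without the KO control array of mouse 4 and 6 without the WT control array of mouse 1, and the Mars1 call was lost in 16 alternatives (adjusted p up to 0.213).

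The same comparison could be formed on the 12 RSG arrays, which used other cultures of the same mice. On these, 2234 genes (12.3%) were called, 1408 (7.74%) higher and 826 (4.54%) lower. Of the 1723 genes called higher on vehicle arrays, 934 were called higher on RSG arrays, 1650 had the same sign and none was called the other way. Of the 1000 called lower, 595 were called lower again, 955 had the same sign and 2 were called higher. The share of all genes with the same sign was not computed. The medians of the KO IL-4 arrays with RSG were -0.207, -0.12 and -0.0815. They were -0.0176, -0.0993 and -0.107 on the KO control and -0.0403 to 0.087 on the WT arrays with RSG. How far this offset shaped the shared signs was not tested. By list, 13 alternative activation genes were called higher on RSG arrays beside 10 on vehicle arrays, 12 neutrophil genes lower beside 12, 17 interferon-stimulated genes lower beside 22 and 10 cell cycle genes lower beside 16.

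Whether the difference itself changed with RSG was tested as the vehicle difference minus the RSG difference. This was called for 9 genes (0.0495%), and at an unadjusted p under 0.05 for 1390 genes (7.64%). Of the 22 interferon-stimulated genes, 20 had an unadjusted p under 0.05, 20 had a smaller difference of the same sign with RSG, and 3 were called. The exceptions to a smaller difference of the same sign were Rtp4, whose difference was larger in size with RSG (-5.09 ± 0.99 beside -4.6 ± 0.99), and Usp18, whose sign turned (0.28 ± 0.34 beside -2.02 ± 0.34). Those not under 0.05 in the unadjusted p of this test were Rtp4 (0.73) and Ddx58 (0.0661). The median of the list was -2.12 with RSG and -4.37 with the vehicle. Counts of this kind describe the list, whose members share arrays and are known to be induced together. The share of all genes with a smaller difference of the same sign was not computed. All 22 members had been called on vehicle arrays, so the count of 20 cannot be read as particular to this list.

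**Figure D5:**
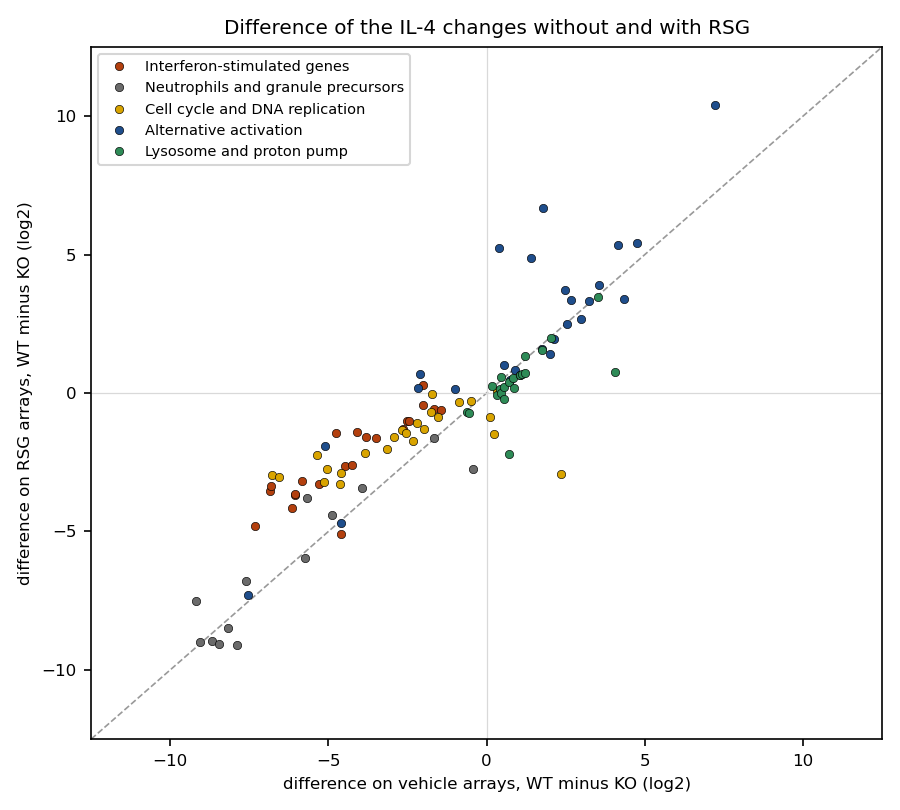
Difference of the IL-4 changes, WT minus KO (log2), on vehicle arrays (x axis) and on RSG arrays (y axis) for the genes of 5 lists, with 1 point for each gene and a dashed line where both are equal. Of 22 interferon-stimulated genes, 21 lie above the line and nearer to 0 on the y axis, with medians of -4.37 and -2.12.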

How the data were processed

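RNA of 24 cultures from 6 mice was hybridised to Affymetrix Mouse430_2 arrays. The deposited values are a ratio for each probe set: the authors took GCOS and GCRMA signals (the submitters' processing notes name both, without versions) and, in GeneSpring, divided by each chip's median and each probe set's median over arrays. A further division by vehicle controls, named in the methods, is not carried by these values. The lowest ratio was 0.01, held by 37 values.

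Log2 ratios of 45037 probe sets (64 controls removed) were fitted with limma 3.58.1 in R 4.3.3 (lmFit, eBayes; 8 groups, no pseudocount, no filter). P-values were Benjamini-Hochberg adjusted over all probe sets. Calls needed an adjusted p under 0.05 and 1.5-fold. Of the probe sets, 34945 had 1 symbol, 932 several and 9160 none in GEO's platform annotation. The 18193 genes took their probe set of largest interquartile range. Of 1380 called genes with several probe sets, 833 had another with the same call and 8 one with the opposite call. Promoters were taken from RefSeq tables for 14452 measured genes. The code was tested on simulated data.

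Named were the 10 largest differences each way among genes also called with centring, quantile normalization and the mouse block and not overlapping within mice, up to 3 called members of each list each way, and genes of the study's text. Others (such as Csf1r, Adgre1, Il4ra, Rxra, Mki67, Tnf, Il1b, Il1rn, Ptpn6, Mpo, S100a9, Pdcd1lg2, Egr2, Cpa3, Cd3d, Rbp4, the interferon-stimulated genes beyond the largest, and the 9 genes of the three-way term) were chosen after their values were seen. All members and lists were chosen with earlier results of these data known. Mouse numbers are those that lead the sample titles, read as 1 animal each and so as pairs. The pairing rests on these titles. The deviations of the 6 vehicle pairs correlated with a mean of 0.0154 (0.00209 to 0.0316). Alternatives were centring, quantile normalization, a variance trend, 12 arrays alone, ordinary least squares, a raised floor, other probe sets, a mouse block and the removal of single mice or arrays. The use of any probe set of a gene and the centred group means were added after seeing the data.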

Additional observations from a re-analysis of the deposited data

Results flagged for a closer look

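The difference of the IL-4 changes between genotypes itself differed between vehicle and RSG arrays for 9 genes, by the three-way term of the limma fit over 24 arrays with Benjamini-Hochberg adjustment over all probe sets. Each value is the vehicle difference minus the RSG difference on the log2 scale, ± SE, with 3 arrays in each of the 8 groups, and Slamf9 alone of the 9 was not called on vehicle arrays.

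Sema4b, which encodes a semaphorin, was the only gene with a positive value, 7.77 ± 0.72 (adjusted p = 0.000198). On vehicle arrays its levels were -2.74, -3.46 and -1.91 on the WT control arrays, 1.64, 1.19 and 1.53 on the WT IL-4 arrays, -0.13, -0.15 and 0.45 on the KO control arrays and -2.66, -2.6 and -2.72 on the KO IL-4 arrays. The WT IL-4 arrays were the highest, and the WT control and KO IL-4 arrays overlapped at the low end. With RSG they were 0.48, 0.70 and -0.71 on the WT control arrays, 1.15, 1.5 and 0.92 on the WT IL-4 arrays, -2.08, -1.25 and -1.93 on the KO control arrays and 0.22, 0.12 and 0.19 on the KO IL-4 arrays. Here the KO control arrays were the lowest, with the KO IL-4 arrays between them and the WT IL-4 arrays. The differences were 6.87 ± 0.51 and -0.90 ± 0.51, and with the probe set of highest mean level that on vehicle arrays was 1.85.

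Ptx3, which encodes a long pentraxin that binds microbes, had a value of -9.75 ± 1.48 (adjusted p = 0.02). On vehicle arrays the levels were 0.36, 2.01 and 0.94 on the WT control arrays, -0.049, -0.67 and -1.73 on the WT IL-4 arrays, -3.96, -2.58 and -1.74 on the KO control arrays and 0.56, 0.69 and 0.91 on the KO IL-4 arrays, and with RSG they were -2.02, -2.14 and -0.75 on the WT control arrays, 0.97, 0.94 and -1.04 on the WT IL-4 arrays, 1.51, 0.87 and 3.75 on the KO control arrays and -0.77, 0.048 and -0.42 on the KO IL-4 arrays. The sign of the difference turned, from -5.4 ± 1.05 to 4.35 ± 1.05. Enpep, a membrane aminopeptidase gene, had a value of -8.22 ± 1.31 (adjusted p = 0.0288), with differences of -6.26 ± 0.93 and 1.96 ± 0.93.

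Interferon-stimulated genes accounted for Ifit1 at -3.43 ± 0.44 (adjusted p = 0.00612), Ifit3 at -3.31 ± 0.53 (adjusted p = 0.0288) and Oas1a at -1.52 ± 0.24 (adjusted p = 0.0288). Their differences with RSG were -3.37 ± 0.31, -3.53 ± 0.38 and -1.01 ± 0.17, all below 0 and smaller in size than on vehicle arrays. Ifit1 levels on the RSG arrays were 0.23, -0.28 and 0.54 on the WT control arrays, -1.56, -1.5 and -1.31 on the WT IL-4 arrays, -0.30, -0.11 and -0.64 on the KO control arrays and 1.71, 1.24 and 1.23 on the KO IL-4 arrays. The KO IL-4 arrays were again the highest.

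Axl had a value of -2.79 ± 0.40 (adjusted p = 0.02) and a difference with RSG of -3.03 ± 0.28, the zinc finger helicase gene Znfx1 a value of -1.9 ± 0.29 (adjusted p = 0.02) and the SLAM family receptor gene Slamf9 a value of -1.8 ± 0.30 (adjusted p = 0.045). For Znfx1 the difference was -1.71 ± 0.20 with the vehicle and 0.18 ± 0.20 with RSG, and for Slamf9 it was -0.61 ± 0.21 and 1.19 ± 0.21. The number of probe sets called for this three-way term was 15, and it was 5, 2, 20, 8, 1 and 3 without mice 1 to 6 in turn. None of these genes was followed further, and what lies behind the values was not tested.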

How the results depend on the processing

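On vehicle arrays 6561 probe sets (14.6%) were called, 4433 higher in WT and 2128 lower, and 12089 had an unadjusted p under 0.05. With quantile normalization 4147 were called, 2051 of them higher, and the share of higher calls was 67.6% as deposited, 52.7% with centring and 49.5% with quantile normalization. Leaving out 1 mouse or array gave 4449 to 7066 calls, 2672 to 5072 of them higher and 1559 to 2081 lower, with 2779 higher without mouse 2 and 2672 without mouse 3. On RSG arrays 5041 were called, and 3086 to 3890 without 1 mouse (3086, 3351 and 3333 without mice 2, 3 and 4). For the change of the difference with RSG 15 probe sets were called, 29 with centring, 7 with the mouse as replicate block and 1 to 20 without 1 mouse (5, 2, 20, 8, 1 and 3 without mice 1 to 6). The replicate block gave 6473 calls on vehicle arrays (4323 higher, 2150 lower) and 4902 on RSG arrays, and pairing by mouse ended the calls of Dgat2, Gp9, H2-DMa and Idh3b and of no other named gene. Taking any probe set of a gene, 2782 genes were called higher and 1313 lower, and with the probe set of highest mean level 2119 and 1011, against 1723 and 1000. Of 183 named genes 169 were called, 120 of them under every alternative. Over 4933 recomputed values 4582 kept their direction and side of the threshold, 333 lost a call, 11 gained one and 7 changed sign. Those 7 were Angptl4 (-0.409), Axl (2.41) and Scd1 (2.06) with the probe set of highest mean level, Il4ra without mouse 4 (0.161), Pdk4 without mouse 3 (-0.234) and Stat6 with centring (-0.0389) and quantile normalization (-0.276). Without the WT control array of mouse 3 the calls of Alox15, Clec1b, Dgat2, Epx, H2-DMa, Idh3b, Mars1, Stat3 and Ticam1 were lost and those of Retnla and Arg1 gained. Of 2072 recomputed list counts 1883 stayed within 1.5 times the count given. The cause of these shifts was not tested. The 3 mice in each group, and ratios that end at 0.01, limit what could be detected.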
